A study of Mus musculus with 8 samples.

Results

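The 10 genes described here build elastic fibres and small leucine-rich proteoglycans, or mark the fibroblasts that make them: Pdgfra, Dcn, Lum, Bgn, Mfap4, Mfap5, Fbln1, Fbln2, Eln and Fbn1. They were chosen by name, with earlier results of these data known. All 10 were among the 13677 genes of the deposited table and among the 13544 that passed the filter on low values. Poly(A) RNA of mouse ventricular heart tissue had been sequenced in 8 libraries, whose titles read C (n = 3), KO (n = 2, numbered 1 and 3) and DKO (n = 3). By its title the series sets wild-type against Vhl-deficient ventricles and uses the Wt1-Cre model, in which the recombinase is driven by Wt1, a transcription factor gene of epicardial cells; the tissue was untreated. The product of Vhl is the substrate-binding subunit of a ubiquitin ligase through which hypoxia-inducible factors are destroyed in oxygenated cells. The labels spell out neither KO and DKO nor the second change in DKO, and do not say whether the C mice carry Cre. They give no alleles, age, strain or number of animals per library, nor how many of the heart's cells had recombined. Directions below are therefore those between the 3 titles, and p-values measure the spread between these libraries, which may be technical.

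An elastic fibre has a core of cross-linked elastin on a scaffold of fibrillin microfibrils, with fibulins and microfibril-associated proteins at the junction of both. Small leucine-rich proteoglycans such as decorin bind collagen fibrils and limit their width, and carry chondroitin or dermatan sulphate chains (decorin, biglycan) or keratan sulphate chains (lumican). In the heart these proteins come largely from interstitial fibroblasts, which carry PDGF receptor alpha, while smooth muscle and endothelium also make elastin, fibrillin, fibulins and biglycan.

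Levels are the normalised signal of the deposited table, on the scale of CPM, as mean ± SD (n = 3 in C and DKO, n = 2 in KO). Vhl itself stood at 7.91 ± 0.925 for C, 8.64 ± 0.450 for KO and 10.3 ± 1.43 for DKO, so that it was not lower under the titles KO or DKO. The deleted exons are not given, and a whole-gene level cannot check the titles. Cardiomyocyte marker genes were abundant in every library, with summed levels over 12 markers of 43126 to 75526. Library composition moved with the groups: mitochondrial reads made up 16.2% and 17.4% in KO 1 and KO 3, 23.1% to 29.0% in C and 22.9% to 41.6% in DKO. The 10 most abundant genes took at most 22.3% of the reads in KO 1 and KO 3 and 31.2% to 51.5% in the other libraries. The scaling factors in the deposited values were 1.37 and 1.36 in KO 1 and KO 3, against 0.705 to 1.06 in C and DKO, and the part of this composition in the KO differences was not tested. DKO 2 had the highest mitochondrial share, and without it the calls among the 10 genes numbered 6 in KO versus C, 0 in DKO versus C and 5 in DKO versus KO, as with it. Libraries held 15028176 to 21202385 reads, and the 10 genes were covered by 141 reads (Mfap4 in C 3 had the fewest) to 10919 reads in a library.

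The start regions of 3 of the genes are shown because they stand for the patterns that follow: Bgn was higher in KO, while Fbln1 and Pdgfra were not called. Hypoxia-inducible factors bind DNA at a short core, here searched as ACGTG and GCGTG on both strands, and matches are in capitals. RefSeq windows were at hand for 5 of the 10 genes, and those of Fbn1, Fbln2 and a second start of Fbln1 overlap annotated exons and are not printed. Each sequence is the 250 bases before the start, in GRCm38.p6, from Bgn at chrX:73483351-73483600 (plus strand), Fbln1 at chr15:85205699-85205948 (plus strand) and Pdgfra at chr5:75152001-75152250 (plus strand).
Bgn: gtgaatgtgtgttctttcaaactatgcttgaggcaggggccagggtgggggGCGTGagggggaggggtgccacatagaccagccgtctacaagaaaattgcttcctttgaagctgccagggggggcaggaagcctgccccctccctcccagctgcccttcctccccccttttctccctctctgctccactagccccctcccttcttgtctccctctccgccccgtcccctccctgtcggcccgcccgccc
Fbln1: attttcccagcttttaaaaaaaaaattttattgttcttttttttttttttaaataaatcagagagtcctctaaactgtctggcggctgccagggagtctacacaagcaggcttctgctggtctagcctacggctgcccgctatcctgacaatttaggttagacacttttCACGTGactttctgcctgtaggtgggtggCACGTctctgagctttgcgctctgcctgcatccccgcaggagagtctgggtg
Pdgfra: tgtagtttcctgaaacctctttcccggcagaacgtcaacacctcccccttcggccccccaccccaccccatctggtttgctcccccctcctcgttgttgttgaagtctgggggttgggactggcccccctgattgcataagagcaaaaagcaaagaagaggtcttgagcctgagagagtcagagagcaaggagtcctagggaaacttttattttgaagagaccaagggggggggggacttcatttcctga

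The Bgn window held 1 match, a GCGTG that begins 199 bases before the start. The Fbln1 window held 3 matches to ACGTG, of which 2 overlap as the palindrome in capitals that spans both strands, 80 and 81 bases before the start, and the other lies 52 bases before it. The Pdgfra window held 0. Of the windows not printed, those of Fbn1 and Fbln2 held 0 and that of the second Fbln1 start, which overlaps the first, held 4. Of 32851 RefSeq start windows of the same length, 38.6% held ACGTG or GCGTG, 16.6% held ACGTG and 28.2% held GCGTG. A match describes letters in this window, not a bound site.

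In the libraries labelled KO, 6 of the 10 genes rose against C and 0 fell, where 13.9% of all tested genes were called, 6.9% as higher and 7.01% as lower. These were the microfibril-associated Mfap4 and Mfap5, the proteoglycan gene Bgn, the fibulin gene Fbln2, the elastin gene Eln and the fibrillin gene Fbn1. Fold changes ran from 3.24 for Mfap4 to 1.59 for Fbn1. Dcn, Lum, Fbln1 and Pdgfra did not pass the test, and the negative differences of Fbln1 and Pdgfra turned positive, still uncalled, when libraries were scaled by total reads alone. The median log2 fold change of the 10 genes was 0.78, beside 0.01 over all tested genes. Leaving out C 1, C 2, KO 1 or KO 3 lowered the count to 4. Without KO 1 or KO 3, here and below, KO is a single library, which is assumed to vary like the other groups. In bulk tissue, fewer cells of a type and less RNA per cell cannot be told apart.

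**Figure D1:**
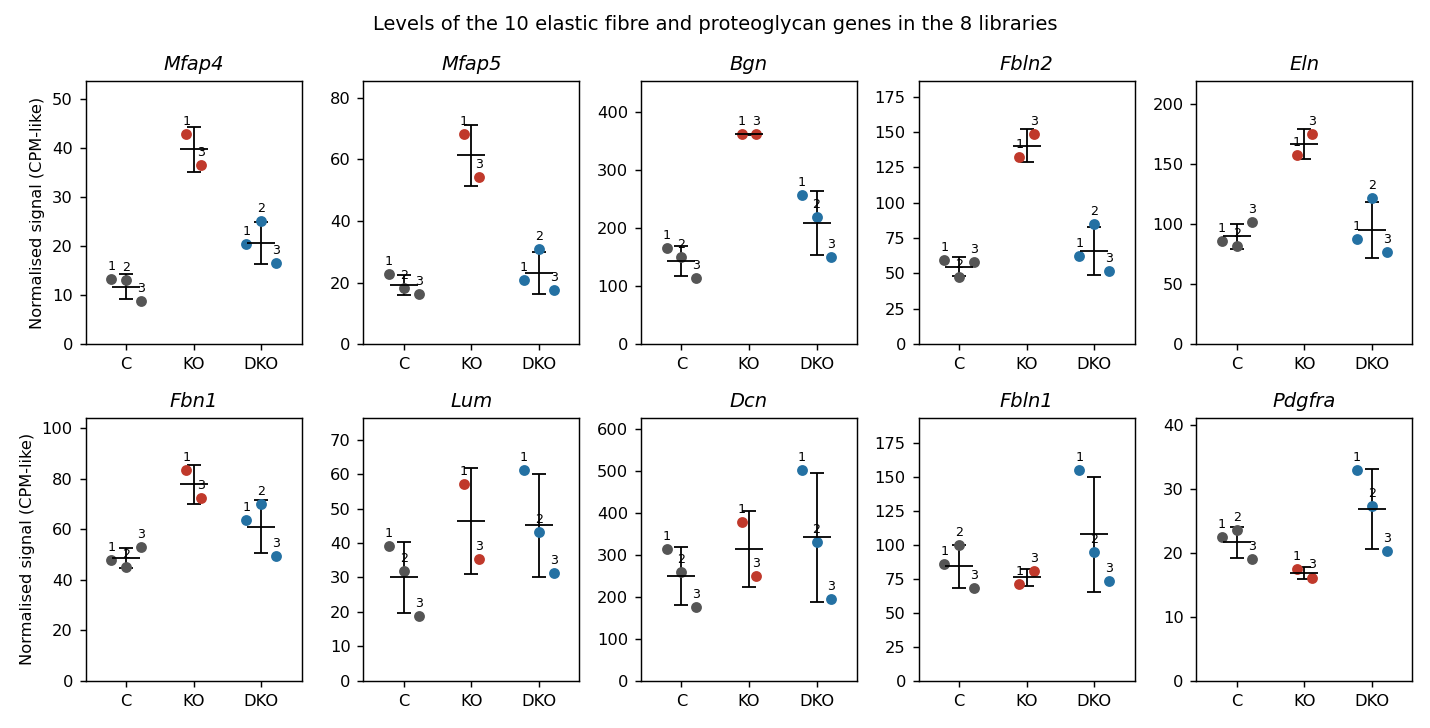
Normalised signal (CPM-like scale, vertical axis from 0) of the 10 genes in C, KO and DKO; points are libraries with their replicate number, and bars are the mean and SD. For Mfap4, Mfap5, Bgn, Fbln2, Eln and Fbn1 both KO libraries lie above all libraries of C and DKO, as with Bgn at 361 and 362 in KO.

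Fbn1 (chromosome 2, 125300594 to 125507993 in GRCm38) encodes fibrillin-1, the main protein of the microfibril scaffold. Its level was 48.0, 44.9 and 52.9 in C 1, C 2 and C 3, and 83.4 and 72.3 in KO 1 and KO 3. DKO 1, DKO 2 and DKO 3 stood at 63.6, 70.1 and 49.6. Both KO libraries lay above all the others, and DKO overlapped C. The rise in KO was 0.67 ± 0.18 (SE) on the log2 scale, or 1.59-fold (limma, adjusted p = 0.0270). This call ended when C 1, C 2 or C 3 was left out (adjusted p = 0.0891, 0.103 and 0.0571, limma), and likewise for KO 1 or KO 3 (adjusted p = 0.185 and 0.103, limma), at log2 fold changes of 0.57 to 0.77.

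Eln (chromosome 5, 134702593 to 134747323) encodes tropoelastin, the soluble unit of elastin. It stood at 86.1, 81.6 and 101.5 in C 1 to C 3 and at 157.8 and 175.3 in KO 1 and KO 3. In DKO 1, DKO 2 and DKO 3 it was 87.7, 121.4 and 76.5. The KO libraries were again the highest, and the DKO libraries lay on both sides of C. Eln rose 1.85-fold in KO, by 0.89 ± 0.20 (SE) on the log2 scale (by limma, adjusted p = 0.0139). Without C 1 or C 2 the call ended (adjusted p = 0.0566 and 0.0593, limma), as it did without KO 1 or KO 3 (adjusted p = 0.0622 and 0.127, limma), at log2 fold changes of 0.81 to 0.96.

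Mfap4 (chromosome 11, 61485431 to 61488900) encodes a fibrinogen-related protein that binds elastin and fibrillin. Its level was 13.4, 13.1 and 8.74 in C 1 to C 3, 43.0 and 36.6 in KO 1 and KO 3, and 20.4, 25.1 and 16.5 in DKO 1 to DKO 3. It was the 1 gene of the 10 whose groups were fully separated, with every DKO library above C and below KO. The 3.24-fold rise in KO, 1.70 ± 0.22 (SE) in log2, was the largest of the 10 (limma, adjusted p = 9.33e-04). Mapk7 overlaps exons of Mfap4 on the other strand, and the strand setting of the counts is not given in the sources used here. Mapk7 was 13.1 ± 1.90 in C and 14.7 ± 1.35 in KO (n = 3 and n = 2). Eln, Fbn1 and Pdgfra also share exon positions with antisense or other annotated genes, which have no row in the table used here.

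Mfap5 (chromosome 6, 122505845 to 122529290) encodes a small glycoprotein of the microfibril, also called MAGP-2. C 1, C 2 and C 3 had 22.7, 18.3 and 16.3, and KO 1 and KO 3 had 68.3 and 54.1. DKO 1, DKO 2 and DKO 3 had 20.9, 30.9 and 17.6, which overlapped C. Mfap5 rose 3.10-fold in KO, by 1.63 ± 0.23 (SE) on the log2 scale (by limma, adjusted p = 0.00140).

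Of the fibulin genes, Fbln2 (chromosome 6, 91212455 to 91272540), whose product links elastin, fibrillin and basement membranes, was 59.5, 47.2 and 57.8 in C 1 to C 3 and 132.0 and 148.8 in KO 1 and KO 3. DKO 1 to DKO 3 held 62.3, 84.8 and 51.5. Fbln2 rose 2.54-fold in KO, by 1.35 ± 0.21 (SE) on the log2 scale (by limma, adjusted p = 0.00217). Fbln1 (chromosome 15, 85205949 to 85286535), whose product binds fibronectin, laminin and elastin, was 85.7, 99.7 and 68.1 in C 1 to C 3 and 71.5 and 80.7 in KO 1 and KO 3, within the range of C. Its highest library was DKO 1 at 154.9, with DKO 2 at 94.8 and DKO 3 at 73.6. The difference of Fbln1 between KO and C was -0.13 on the log2 scale, with a 95% interval of -0.72 to 0.45 (limma, adjusted p = 0.785).

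Among the proteoglycan genes, Bgn (biglycan, chromosome X, 73483602 to 73495933) was 164.9, 150.0 and 114.6 in C 1 to C 3 and 361.1 and 362.4 in KO 1 and KO 3. DKO 1, DKO 2 and DKO 3 held 256.6, 219.4 and 149.5, of which the last lay within C. Bgn rose 2.55-fold in KO, by 1.35 ± 0.24 (SE) on the log2 scale (by limma, adjusted p = 0.00407). Dcn (decorin, chromosome 10, 97479609 to 97518143) was 314.2, 260.1 and 176.4 in C 1 to C 3 and 377.8 and 250.9 in KO 1 and KO 3, so that the groups overlapped. In DKO 1, DKO 2 and DKO 3 it was 501.9, 330.5 and 194.1, whose SD of 154.3 was the largest of the 10 genes. The difference of Dcn between KO and C was 0.34 on the log2 scale (95% interval -0.44 to 1.12; limma, adjusted p = 0.575).

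Lum (lumican, chromosome 10, 97565128 to 97572703) lies next to Dcn on the same strand. It was 39.2, 31.9 and 18.9 in C 1 to C 3, 57.1 and 35.5 in KO 1 and KO 3, and 61.1, 43.1 and 31.3 in DKO 1 to DKO 3. As with Dcn, C 3 was the lowest library and DKO 1 the highest. The difference between KO and C was 0.63 on the log2 scale (95% interval -0.07 to 1.33; limma, adjusted p = 0.218).

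Pdgfra (chromosome 5, 75152292 to 75198215), the receptor by which platelet-derived growth factors act on fibroblasts, was the 1 gene of the 10 with both KO libraries below C. It was 22.5, 23.7 and 19.0 in C 1 to C 3 and 17.5 and 16.2 in KO 1 and KO 3. DKO 1 to DKO 3 held 32.9, 27.3 and 20.4. Of all tested genes 26.7% likewise had both KO libraries below all of C, and 27.5% had both above, as the 6 called genes did. The difference of Pdgfra between KO and C was -0.34 on the log2 scale (95% interval -0.78 to 0.09; limma, adjusted p = 0.280).

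**Figure D2:**
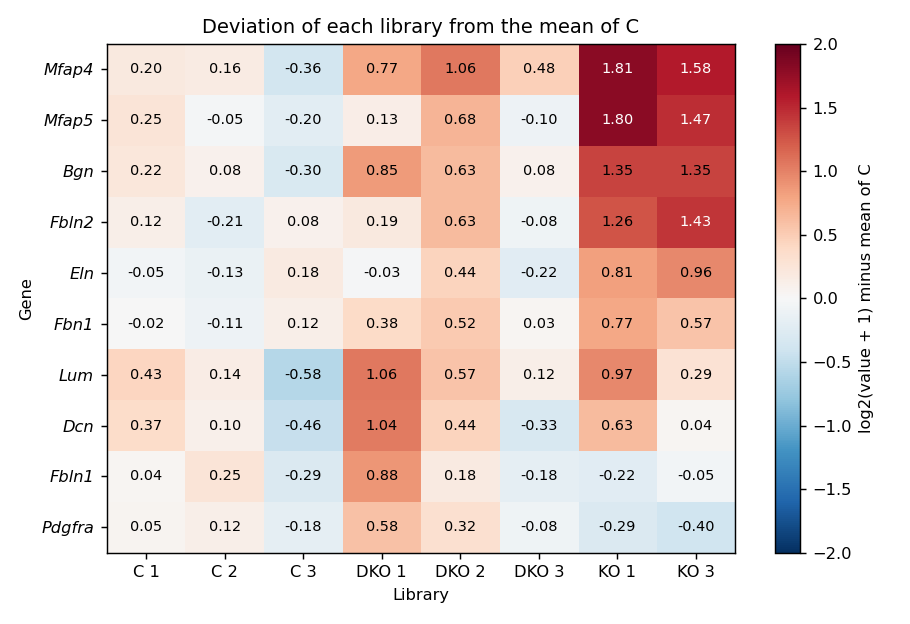
Each cell is log2(value + 1) of a gene (row) in a library (column) minus the mean of C, red above and blue below. The KO columns are red for the upper 6 genes, and within the DKO 1 column the highest cells are Lum at 1.06 and Dcn at 1.04.

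Per kilobase of the longest coding transcript, Dcn had the highest level in C at 142.4 ± 39.5 and Bgn the second at 59.2 ± 10.7, and these did not overlap. Eln (23.3 ± 2.71) and Fbln1 (23.1 ± 4.33) followed and overlapped each other. Mfap5, Lum and Fbln2 lay at 12.7 ± 2.17, 12.3 ± 4.19 and 11.5 ± 1.40 and overlapped in turn. Mfap4 (6.81 ± 1.50), Fbn1 (4.06 ± 0.337) and Pdgfra (3.18 ± 0.355) were the lowest, each apart from its neighbour. In KO, Dcn (178.8 ± 51.0) and Bgn (149.5 ± 0.366) were still the highest per kilobase, and Mfap5 at 40.6 ± 6.64 stood beside Eln at 43.2 ± 3.22.

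Ratios of 2 genes within a library do not depend on how libraries were scaled. The ratio of Bgn to Dcn signal was 0.525, 0.577 and 0.649 in C 1 to C 3 and 0.956 and 1.44 in KO 1 and KO 3. In DKO 1 to DKO 3 it was 0.511, 0.664 and 0.770, below both KO libraries. The ratio of Fbln2 to Fbln1 was 0.695, 0.473 and 0.849 in C 1 to C 3 and 1.85 and 1.84 in KO 1 and KO 3, with 0.402, 0.895 and 0.700 in DKO 1 to DKO 3. The ratio of Bgn to Pdgfra was 7.33, 6.34 and 6.03 in C 1 to C 3 and 20.6 and 22.4 in KO 1 and KO 3. DKO 1 to DKO 3 held 7.79, 8.03 and 7.34, just above C. In 2 libraries against 3 the exact permutation test cannot go below p = 0.2 two-sided, and each of these 3 ratios gave an exact p = 0.2 for KO against C (adjusted p = 0.257 over 9 tests). Each of them sets a gene called in KO over a gene not called, so their order adds no support to those calls. The ratio of Eln to Fbn1, both called, overlapped: 1.795, 1.817 and 1.919 in C 1 to C 3, and 1.892 and 2.423 in KO 1 and KO 3.

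**Figure D3:**
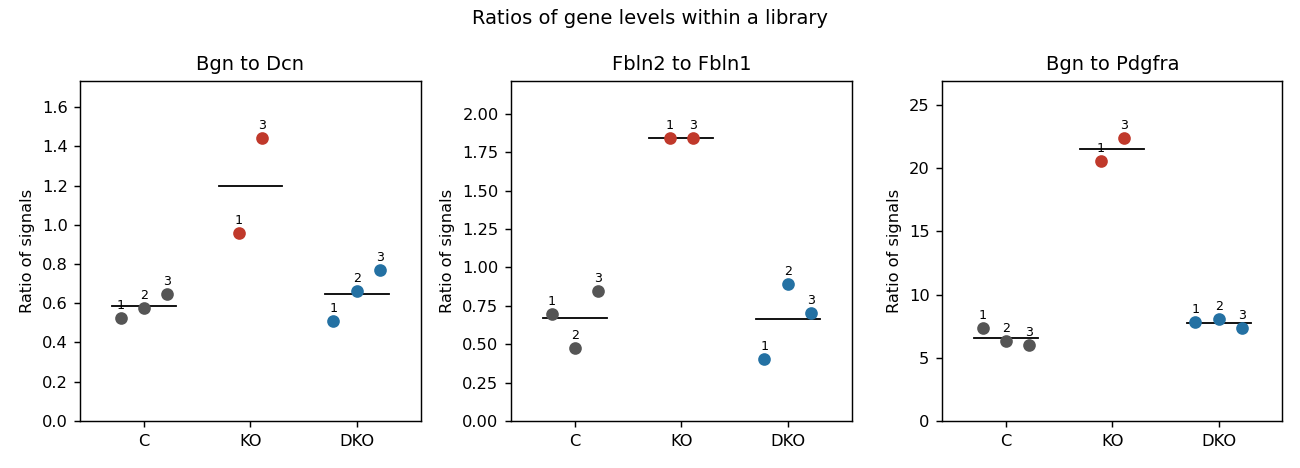
Ratio of the signals of 2 genes (vertical axis, from 0) in each library of C, KO and DKO, with the group mean as a line and the replicate number at each point. Both KO libraries lie above all others in each panel, with Fbln2 to Fbln1 at 1.85 and 1.84.

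Against C, limma called 0 of the 10 genes in DKO, where 0.155% of all tested genes were called, 0.0738% as higher and 0.0812% as lower. All 10 had a positive difference (9 of 10 when scaled by total reads alone, or without C 2 or DKO 2), and the median was 0.30 in log2 beside 0.01 over all tested genes. At an unadjusted p under 0.05 there were 2 genes, Mfap4 and Bgn, in limma and 2 in edgeR, which also called 0. Without DKO 3, 8 of the 10 were at an unadjusted p under 0.05 and 0 were called. Mfap4 had all 3 DKO libraries above C, as did 6.5% of all tested genes, while 7.25% had them below. Mfap4 also had the largest difference, 0.77 ± 0.19 (SE) on the log2 scale (by limma, adjusted p = 0.326), and Eln the smallest, 0.06 ± 0.18 (SE) (limma, adjusted p = 0.937). The 95% interval for Eln ran from -0.33 to 0.46, and that for Dcn from -0.31 to 1.08.

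For each of the 10 genes but Mfap4, the DKO libraries spanned a wider range on the log2 scale than the mean difference between DKO and C. DKO 3 was the lowest DKO library for all 10 genes. DKO 1 was the highest DKO library for Pdgfra, Dcn, Lum, Bgn and Fbln1. DKO 2 was the highest for Mfap4, Mfap5, Fbln2, Eln and Fbn1. Relative to the mean of C, Dcn stood at 1.04 in DKO 1, 0.44 in DKO 2 and -0.33 in DKO 3 on the log2 scale, and Mfap5 at 0.13, 0.68 and -0.10. Summed levels of 22 fibroblast markers reached 3760 (DKO 1), 2892 (DKO 2) and 1695 (DKO 3), against 1504 to 2323 in C and 2265 to 2751 in KO. The most abundant of them, Gsn (gelsolin, an actin-severing protein also made by other cell types), took a large part of the sum, at 845.8 ± 268.7 in C, 651.7 ± 128.9 in KO and 1447 ± 713.6 in DKO. Without Gsn, a choice made after seeing the data, the sums were 1559 (DKO 1), 1534 (DKO 2) and 912 (DKO 3), against 899 to 1187 in C and 1705 to 2008 in KO, so that both KO libraries lay above all of DKO. The part of these markers in the differences between libraries was not tested.

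**Figure D4:**
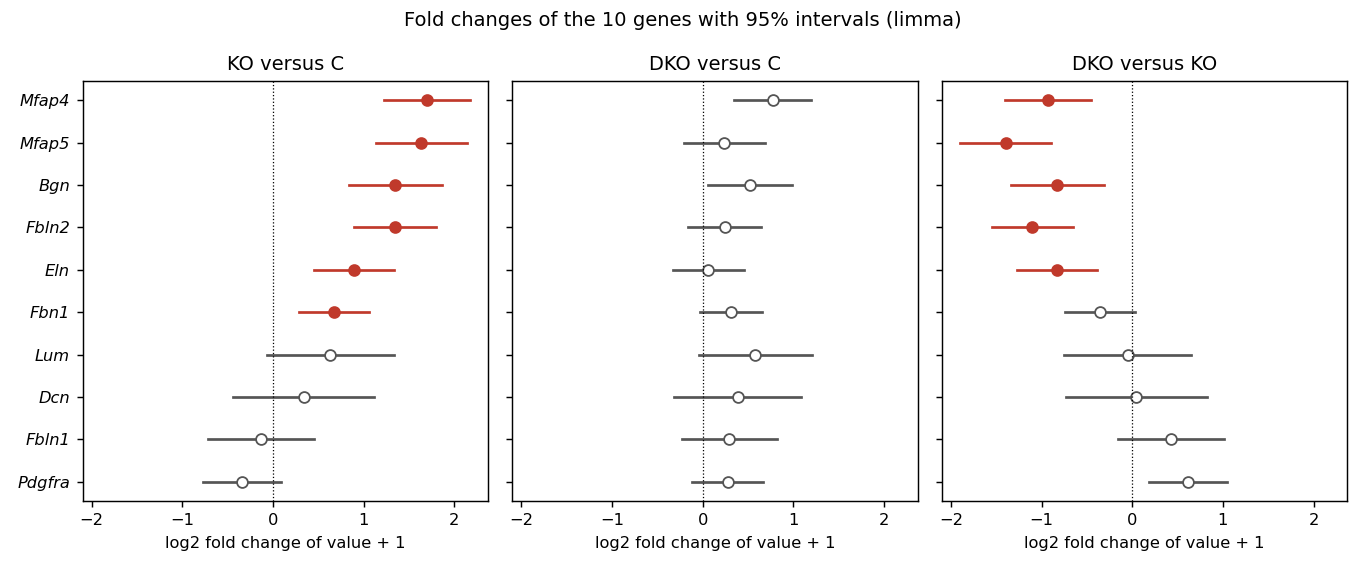
Log2 fold change of value + 1 (horizontal axis) for the 10 genes in the 3 comparisons, with 95% intervals from limma; filled red points have an adjusted p under 0.05. In KO versus C 6 genes are filled, in DKO versus C 0, and in DKO versus KO 5 are filled, each below 0.

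In DKO against KO, 5 of the 10 genes were lower and 0 higher, where 11.8% of all tested genes were called, 6.08% as higher and 5.73% as lower. The KO libraries enter both this comparison and KO versus C, and the DKO libraries both this one and DKO versus C. On the log2 scale the limma difference was -1.40 ± 0.23 (SE) for Mfap5 (adjusted p = 0.00379) and -1.10 ± 0.21 for Fbln2 (adjusted p = 0.00684). It was -0.93 ± 0.22 for Mfap4 (adjusted p = 0.0186, limma), -0.83 ± 0.20 for Eln (adjusted p = 0.0224) and -0.83 ± 0.24 for Bgn (adjusted p = 0.0409). All DKO libraries lay below both KO libraries for these 5 genes and Fbn1, as they did for 21.1% of all tested genes, and 20.5% had them above, as had Pdgfra. Fbn1 differed by -0.36 ± 0.18 (SE) and did not pass (limma, adjusted p = 0.206). Pdgfra was 0.62 ± 0.20 (SE) higher in DKO (limma, adjusted p = 0.0652), and it passed without DKO 3 (adjusted p = 0.0164, limma), while scaling by total reads alone turned its sign, uncalled, with those of Fbln1 and Dcn. Dcn and Lum differed by 0.05 ± 0.36 (SE) and -0.05 ± 0.32 (SE).

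Several of these calls ended with fewer libraries while the differences stayed lower in DKO. Leaving out KO 3 left the call of Mfap5 alone, and leaving out KO 1 those of Mfap5 and Fbln2. Where its call ended, the log2 difference of Bgn was -0.61 without DKO 3 and -0.82 or -0.83 otherwise. Those of Eln were -0.90 without KO 1 and -0.75 without KO 3, those of Mfap4 -0.81 and -1.04, and that of Fbln2 was -1.01 without KO 3. The call of Bgn ended without C 1, C 2 or C 3 (adjusted p = 0.0607, 0.0710 and 0.0533, limma), DKO 3 (0.0780), KO 1 (0.166) or KO 3 (0.207), and in a fit of DKO and KO alone (0.111). That of Eln ended without KO 1 or KO 3 (adjusted p = 0.0872 and 0.183, limma) and in a fit of both groups alone (0.0785). The call of Mfap4 ended without KO 1 or KO 3 (adjusted p = 0.139 and 0.0954, limma), and that of Fbln2 without KO 3 (adjusted p = 0.0902, limma).

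Of 23 tested partners in elastic fibre assembly, 9 rose in KO against C and 1 fell (median log2 fold change 0.44). Beside this list and those that follow, 6.9% of all tested genes were called as higher in KO than in C and 7.01% as lower. In DKO against KO 6.08% were called as higher and 5.73% as lower. Ltbp2, whose product binds fibrillin microfibrils, rose from 3.04 ± 0.832 to 33.2 ± 10.8 (limma, adjusted p = 1.06e-04). Adamtsl2, whose product binds fibrillin, rose from 14.1 ± 1.51 to 48.9 ± 6.11 (limma, adjusted p = 0.00245), and Lox, the lysyl oxidase that cross-links elastin and collagen, from 4.90 ± 0.563 to 17.3 ± 6.37 (limma, adjusted p = 0.00319). The others that rose were Itgb3, Fn1, Fbln5, Loxl1, Mfap2 and Emilin1. The 1 gene that fell, named after its values were seen, was Efemp1, which encodes fibulin-3, at 3.40, 2.68 and 3.55 in C 1 to C 3 against 0.256 and 0.607 in KO 1 and KO 3 (limma, adjusted p = 0.00233). It stood at 3.76 ± 1.04 in DKO. In DKO against KO, 6 of these partners were lower and 1, Efemp1, was higher (limma, adjusted p = 0.00167). In DKO against C, limma and edgeR called 0 of the 23, with 7 at an unadjusted p under 0.05 in limma. Leaving out KO 1 or KO 3 lowered the 9 risen partners to 5 and 4, and the 6 that were lower in DKO than in KO to 3 and 2.

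Of 8 tested small leucine-rich proteoglycans and relatives other than Dcn, Lum and Bgn, 4 rose in KO and 0 fell (median log2 fold change 0.59). Podn (podocan) rose from 8.80 ± 2.02 to 27.0 ± 4.59 (limma, adjusted p = 0.00200), Aspn (asporin, which binds collagen and TGF-beta) from 14.7 ± 2.08 to 41.9 ± 16.2 (limma, adjusted p = 0.00249), and Tsku (tsukushi) from 1.66 ± 0.320 to 5.26 ± 0.0545 (limma, adjusted p = 0.0214). The call of Tsku ended when any 1 of the C or KO libraries was left out (adjusted p from 0.0511 to 0.139, limma). The fourth gene that rose was Prelp. Leaving out any 1 of these libraries lowered the count to 2. In DKO against KO, Aspn and Podn were lower and 0 of the 8 higher. Another 6 genes of the list, Omd, Kera, Epyc, Podnl1, Nyx and Optc, had no row in the table used here.

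Of 21 other proteoglycan and link protein genes, 8 rose in KO and 0 fell (median log2 fold change 0.64). Col18a1, encoding the heparan sulphate proteoglycan collagen XVIII of basement membranes, rose from 15.2 ± 3.19 to 71.1 ± 12.9 (limma, adjusted p = 6.50e-04). Esm1 (endocan, a secreted proteoglycan of endothelium) stood at 0.949, 0.934 and 2.01 in C 1 to C 3 and rose to 10.4 and 4.98 in KO 1 and KO 3 (limma, adjusted p = 0.00282). Vcan (versican, which forms large aggregates with hyaluronan) rose from 7.42 ± 0.527 to 21.9 ± 6.81 (limma, adjusted p = 0.00405), a call that ended without KO 1 (adjusted p = 0.0550, limma). The others were Acan, Gpc3, Gpc6, Cspg4 and Sdc3. Acan averaged 0.173 in C and 0.0330 in DKO, so it passed the filter only through KO. Its calls, here and as lower in DKO than in KO, are therefore a description. Without KO 1 or KO 3, 20 of the 21 genes were tested, with median log2 fold changes of 0.74 and 0.64. Fewer of them were then called as higher. A fit of C and KO alone gave 13 risen genes. In DKO against KO, 6 of the 21 were lower and 0 higher. A fit of DKO and KO alone gave 4 lower genes. The count of 6 also dropped without KO 1 or KO 3, at median log2 fold changes of -0.31 and -0.49.

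Of 21 genes that make chondroitin and dermatan sulphate chains, 7 rose in KO and 0 fell (median log2 fold change 0.56). Fam20b, a xylose kinase of the linker, rose from 29.8 ± 3.11 to 56.2 ± 3.51 (limma, adjusted p = 0.00471), a call that ended without KO 3 (adjusted p = 0.0665, limma). Xylt1, a xylosyltransferase that starts the chain, was 1.32 ± 0.347 in C and 3.48 in both KO libraries (limma, adjusted p = 0.0328). Chst14, which sulphates dermatan, rose from 4.18 ± 0.817 to 8.87 ± 0.405 (limma, adjusted p = 0.0154). The call of Xylt1 ended when any 1 of the C or KO libraries was left out (adjusted p from 0.0559 to 0.187, limma). That of Chst14 ended without C 3 or either KO library (adjusted p from 0.0599 to 0.104, limma). The 7 risen genes became 2 without KO 1, 1 without KO 3, 2 without C 3, and 3 without C 1 or C 2. In DKO against KO, Xylt1, Fam20b and Chpf were lower and 0 of the 21 higher. This call of Xylt1 ended in a fit of DKO and KO alone and without DKO 1 (adjusted p = 0.0585 and 0.0523, limma). It also ended without KO 1 or KO 3, at a log2 difference of -1.05 in each. That of Fam20b ended without KO 3, at -0.76.

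Of 6 PDGF ligand and receptor genes other than Pdgfra, limma called 0 in KO against C, with 1 at an unadjusted p under 0.05, and edgeR called 0 (median log2 fold change 0.37). Pdgfrb, the receptor of mural cells and fibroblasts, had the smallest p, at 53.1 ± 4.12 in C, 75.2 ± 13.3 in KO and 74.9 ± 7.30 in DKO (limma, adjusted p = 0.0737 for KO against C). It passed without DKO 2 (adjusted p = 0.0312, limma) and in a fit of C and KO alone (adjusted p = 0.0259, limma).

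**Figure D5:**
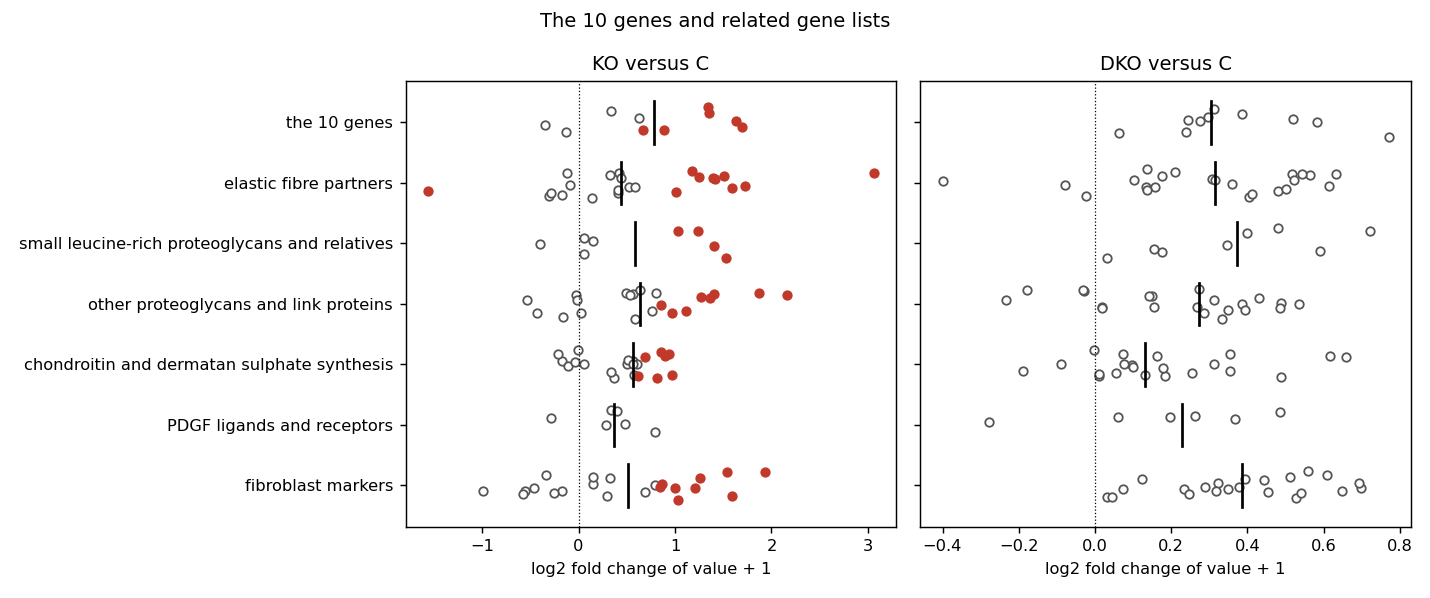
Log2 fold changes of value + 1 (horizontal axes, which differ in range) of the 10 genes and 6 related lists in KO versus C and DKO versus C; each point is a gene, filled red with a limma adjusted p under 0.05, and the line is the median. Ltbp2 lies farthest right and Efemp1 farthest left among elastic fibre partners in KO versus C.

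In the fibroblast marker list, limma called 9 of 22 genes as higher in KO and 0 as lower, and the median log2 fold change was 0.51. A fit of C and KO alone called 11 as higher and 3 as lower, and 1 was lower without DKO 1 or DKO 3. In the fit of all 3 groups 7 of the 22 had a negative difference and did not pass, among them Dpep1 (27.5 on average in C, 13.4 in KO), Dpt (64.0 and 46.4) and Gsn, which were named after their values were seen. The fibrillar collagen genes led: Col1a1 rose from 63.5 ± 7.53 to 243.7 ± 20.3 (limma, adjusted p = 0.00200), Col1a2 from 62.0 ± 14.5 to 185.9 ± 16.3 (limma, adjusted p = 0.00465) and Col3a1 from 150.9 ± 19.0 to 441.3 ± 83.0 (limma, adjusted p = 0.00421). Tcf21, a transcription factor gene of the fibroblast lineage that was named after its values were seen, was 5.57 ± 1.95 in C and 10.2 ± 3.08 in KO and did not pass (limma, adjusted p = 0.118), but passed in a fit of C and KO alone (adjusted p = 0.0420, limma). Leaving out KO 1, KO 3 or C 3 lowered the 9 risen markers to 3, 4 and 5. In DKO against C limma and edgeR called 0 of the 22, with 5 at an unadjusted p under 0.05 in limma, and without DKO 3 Col1a1 was called (adjusted p = 0.0355, limma). In DKO against KO, 5 of the 22 were lower and 2 higher, Dpep1 and Abi3bp, and without KO 1 or KO 3 there were 0 lower calls (limma). The ratio of Bgn to Col1a1 was 2.35, 2.30 and 2.07 in C 1 to C 3 and 1.40 and 1.58 in KO 1 and KO 3. That of Eln to Col1a1 was 1.23, 1.25 and 1.84 in C and 0.611 and 0.764 in KO.

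Counts of called markers of other cell types follow, where 6.9% of all tested genes were called as higher in KO and 7.01% as lower. The calls of 1 of 14 endothelium markers and 1 of 12 macrophage markers are near these shares. Of 9 tested epicardium markers 5 rose in KO, led by the keratin gene Krt19, at 0.192 ± 0.184 in C against 7.47 ± 2.74 in KO (limma, adjusted p = 2.21e-04). Their summed level ranged from 11.2 to 19.1 in C, from 14.8 to 24.5 in DKO and from 38.1 to 38.2 in KO. Leaving out C 3 gave 3 risen markers in limma. Without KO 1 or KO 3 fewer epicardium markers passed the filter, 7 and 6. Their median log2 fold changes were then 0.68 and 0.66, against 0.92 for the 9, and most of the 5 calls ended. Wt1 stood at 3.42 ± 1.19 for C, 7.32 ± 0.422 for KO and 4.97 ± 1.44 for DKO. Krt19 had 0 reads in at least 1 library, as did Msln. Krt19 reached at most 0.392 in C and 0.713 in DKO, so it passed the filter on low values only through KO. Its rise in KO is therefore a description and its p-value carries no weight. The 5 risen markers include Krt19 and also Krt18, which averaged 0.659 in C and 0.381 in DKO, below the filter value of 1. The count of 5 is therefore a description too. Of 12 mural cell markers limma and edgeR called 0, with 1 at an unadjusted p under 0.05 in limma, Notch3 (31.9 ± 7.70 in C, 52.5 ± 5.19 in KO, adjusted p = 0.0738). Notch3 passed in a fit of C and KO alone (adjusted p = 0.0134, limma) and without DKO 2 (adjusted p = 0.0173, limma). Their summed level ranged from 2933 to 3158 in C, from 2330 to 3202 in DKO and from 2903 to 2907 in KO. Most of this was Des (desmin), which cardiomyocytes also express, at 2295 ± 188.2 in C, 2055 ± 29.2 in KO and 2005 ± 625.3 in DKO. Without Des, again chosen after seeing the data, the mural sum ranged from 653 to 792 in C, from 639 to 1022 in DKO and from 827 to 872 in KO. Of 14 endothelium markers 1 fell in KO, Cldn5, which encodes a tight junction protein, at 83.9 ± 25.9 in C against 39.5 ± 8.47 in KO (limma, adjusted p = 0.0407), a call that ended in 6 of the alternatives (adjusted p from 0.0622 to 0.291). The summed endothelial level ranged from 1491 to 2007 in C, from 1479 to 2687 in DKO and from 1575 to 1670 in KO.

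Of 12 macrophage markers 1, the complement gene C1qb, rose from 45.5 ± 2.73 in C to 70.3 ± 0.857 (limma, adjusted p = 0.0311), a call that ended when any 1 of the C or KO libraries was left out (adjusted p from 0.0733 to 0.161). The summed macrophage level ranged from 336 to 369 in C, from 381 to 483 in DKO and from 474 to 476 in KO. Of 12 cardiomyocyte markers 3 fell, among them Tnni3, the cardiac troponin I gene, at 6364 ± 383 in C against 2554 ± 7.85 in KO (limma, adjusted p = 0.0211), a call that ended in 7 of the alternatives (adjusted p from 0.0741 to 0.254). In a fit of C and KO alone 8 cardiomyocyte markers fell and 7 macrophage markers rose, and without DKO 2 these counts were 7 and 5. With total reads alone 0 cardiomyocyte markers fell and 11 macrophage markers rose. Quantile normalisation gave 2 fallen and 1 risen cardiomyocyte markers. The median log2 fold change of the cardiomyocyte markers was -0.72 in the main fit, -0.18 with total reads and 0.08 with quantile normalisation. Leaving out C 1, C 2 or C 3 left 1 fallen cardiomyocyte marker. The calls of fallen cardiomyocyte markers ended without KO 1 or KO 3, at median log2 fold changes of -0.70 and -0.80. The summed cardiomyocyte level ranged from 72755 to 75526 in C, from 43126 to 47892 in KO and from 43684 to 72856 in DKO. The part of these markers in the levels of the 10 genes was not tested.

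The genes whose profile over the 8 libraries lay nearest to the mean profile of the 10 genes were Tspan4, Col6a2, Tgfbr2, Vim and Cd34. Their root mean square differences from it were 0.0983, 0.0991, 0.102, 0.104 and 0.107 on the log2 scale, among genes at or above the median level. Col6a2, a chain of collagen VI, stood at 60.5 ± 10.2 for C, 113.1 ± 2.04 for KO and 84.7 ± 22.9 for DKO. Tgfbr2, a receptor of TGF-beta, stood at 31.5 ± 6.91 for C, 60.2 ± 1.28 for KO and 40.7 ± 9.65 for DKO. These genes were picked for this likeness, so their levels are a description.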

How the data were processed

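RNA sequencing libraries were grouped by their titles. According to the submitters' processing notes the tools were cutadapt, RSEM 1.3.1 and limma, and the build was GRCm38; the role of each tool, the annotation and the strand setting were not stated there or in the labels. The deposited table holds a normalised signal: each value is a number of reads plus 0.5 over an effective library size, on the CPM scale. Taking this back gave whole reads, within 0.001, for 100% of values. Of the rows, 11 have an identifier and no symbol. Depth was 15028176 to 21202385 reads per library, so 3 reads, the limit a count of 0 allows, equal a signal of 0.104 to 0.283; this covers counting error only.

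A gene entered the tests if 2 or more libraries had a value of 1 or more. Tests were made on log2(value + 1) with limma 3.58.1 (R 4.3.3), 3 group means over all 8 libraries and an intensity trend; Benjamini-Hochberg adjustment ran over 13544 genes, threshold 0.05. This scale understates changes of low genes. Scripts were tested on simulated reads. Alternatives were pseudocount 0.5, other filters, DESeq2 1.42.0 size factors, quantile normalisation, edgeR 4.0.16 on recovered reads, fits of 2 groups, a replicate block, leaving out each library, and, added after seeing the data, scaling by total reads. No pair of libraries of a group was alike within counting noise (chi-square per gene 13.7 to 256). Coordinates and transcript lengths are from GENCODE M21 (GRCm38; 13666 of 13677 identifiers matched), start windows from RefSeq. The genes and lists were chosen with earlier results of these data known. Named genes were the 10 genes, Vhl, Wt1, up to 3 called genes per related list or the smallest p where none was called, 1 per cell type list, and 5 of like profile; exceptions are marked. Mapk7 was added because it overlaps Mfap4.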

Additional observations from a re-analysis of the deposited data

How the results depend on the processing

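Between KO and C the 6 calls held with pseudocount 0.5, with no filter or a stricter one, with DESeq2 size factors, quantile normalisation, edgeR and a fit of both groups alone; Lum was the added call with a replicate block (adjusted p = 0.0308) and with total reads (adjusted p = 0.0194). Leaving out 1 library gave 4 to 6 called genes of the 10 in KO versus C, 0 in DKO versus C and 1 to 5 in DKO versus KO, where a fit of both groups alone gave 3. Over all tested genes, leaving out 1 library gave 416 to 2973 calls in KO versus C (1883 with all), 4 to 90 in DKO versus C (21 with all) and 310 to 1989 in DKO versus KO (1599 with all). A fit of 2 groups alone gave 3606 calls in KO versus C and 730 in DKO versus KO. The cause was not tested.

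Scaling by total reads alone, chosen after seeing the data, shifted the median of all genes by 0.48 in KO versus C, by -0.10 in DKO versus C and by -0.58 in DKO versus KO. It gave 4806 calls (4611 higher, 195 lower, against 934 and 949), and 6205 in DKO versus KO (206 higher, 5999 lower, against 823 and 776). The signs of Pdgfra and Fbln1 turned with it in KO versus C, where neither was called. Pdgfrb turned to -0.65 in DKO versus KO and was called there as lower in DKO (adjusted p = 0.0369, limma). In DKO versus C 31 genes were called. Among the related lists, the genes that rose in KO then numbered 17 elastic fibre partners, 15 other proteoglycans, 15 sulphate synthesis genes and 5 PDGF genes, and of the 10 genes 7 rose in KO and 6 were lower in DKO than in KO.

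Not every same-numbered pair of libraries deviated together (correlations -0.274 to 0.218), so the numbers were not taken as pairs. With the replicate block 7 of the 10 genes were called in KO versus C, 0 in DKO versus C and 5 in DKO versus KO, and 1794, 21 and 1269 of all genes; 4 sulphate synthesis genes rose, Tcf21 passed in KO versus C (adjusted p = 0.0249, limma; 0.00826 with total reads), and the calls of C1qb (adjusted p = 0.0566, limma) and Xylt1 (adjusted p = 0.0506, limma) ended. With 2 KO libraries, small changes of Dcn or Lum are limited by the spread between libraries and not by depth.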
